A study of Homo sapiens with 15 samples.

Results

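In HPAF-II pancreatic adenocarcinoma cells, 326 of 222814 open chromatin regions had peaks in nearly all solvent control libraries used and in no Lgk974 library used. The libraries used were taken after 24 h and after 48 h, and those left out by the rule are described below. The assay was ATAC-seq: a transposase cuts and tags DNA that is accessible, and each library was represented by its own list of peaks, the places where such cuts pile up. All peaks on chromosomes 1 to 22 and X were merged into regions where they overlapped by at least 1 bp. The lost regions were selected on these measured peak calls: a peak in at least 6 of the 7 DMSO libraries used, with 0 of 5 for Lgk974. They made up 0.146% of all regions, and 0.487% of the 66980 regions called in 6 or 7 of the DMSO libraries. Because the calls chose the regions, the absence of peaks with Lgk974 is how they are defined and carries no test.

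The groups were DMSO for 24 h (4 libraries), 1 µM Lgk974 for 24 h (4), DMSO for 48 h (4) and 1 µM Lgk974 for 48 h (3), all labelled as HPAF-II, an established human cell line with epithelial morphology. The growth description in the labels also covers KATO III cells, which no sample label names. The rule left out 3 libraries: DMSO 24 h replicate 3, which had the longest list of all 15 (127886 peaks), and Lgk974 24 h replicate 3 and Lgk974 48 h replicate 3, which had the shortest (53610 and 57708). The labels do not say whether replicates were separate cultures, so p-values reflect a sample-to-sample spread that may be technical.

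WNT proteins must carry a lipid, added by the enzyme porcupine, before a cell can secrete them, and Lgk974 blocks porcupine. Secreted WNT binds Frizzled receptors and keeps beta-catenin from the destruction complex that AXIN proteins help to build, and beta-catenin then works with TCF and LEF factors on target genes. AXIN2 is itself such a target and so forms a feedback loop. HPAF-II cells lack working RNF43, a ubiquitin ligase that clears Frizzled from the cell surface, and they depend on their own WNT.

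Sequence could be read at the lost regions that overlapped or lay near a gene start, since RefSeq promoter windows of 300 bases (250 before to 50 after a start, GRCh38.p14) were at hand and a genome was not. Of 34961 such windows, 3 overlapped a lost region and 12 lay within 1 kb of one. These 12 windows belonged to 8 lost regions. The following windows, printed 5′ to 3′ on the strand of the gene, are shown because they are the sequence in or closest to lost chromatin. Capitals mark matches on either strand to the searched motifs: CACCC of KLF factors in all 3 windows, AACCGG of GRHL factors in the first, and GGAATG of TEAD factors in the second.
LRRC63 promoter, chr13:46211678-46211977, plus strand: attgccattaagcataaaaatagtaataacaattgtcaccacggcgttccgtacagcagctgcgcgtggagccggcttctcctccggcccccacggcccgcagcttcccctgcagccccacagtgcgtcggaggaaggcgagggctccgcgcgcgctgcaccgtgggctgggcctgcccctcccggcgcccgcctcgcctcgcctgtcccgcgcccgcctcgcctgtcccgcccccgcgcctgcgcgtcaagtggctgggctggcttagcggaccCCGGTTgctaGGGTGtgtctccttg
ASTN2-AS1 promoter, chr9:116504033-116504332, plus strand: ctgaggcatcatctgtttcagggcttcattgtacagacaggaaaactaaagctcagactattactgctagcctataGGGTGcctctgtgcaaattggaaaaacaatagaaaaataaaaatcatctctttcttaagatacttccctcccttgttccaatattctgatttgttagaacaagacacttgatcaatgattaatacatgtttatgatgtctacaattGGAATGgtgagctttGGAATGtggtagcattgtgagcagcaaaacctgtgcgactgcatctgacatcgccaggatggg
ZNF503-AS2 promoter, chr10:75403915-75404214, plus strand: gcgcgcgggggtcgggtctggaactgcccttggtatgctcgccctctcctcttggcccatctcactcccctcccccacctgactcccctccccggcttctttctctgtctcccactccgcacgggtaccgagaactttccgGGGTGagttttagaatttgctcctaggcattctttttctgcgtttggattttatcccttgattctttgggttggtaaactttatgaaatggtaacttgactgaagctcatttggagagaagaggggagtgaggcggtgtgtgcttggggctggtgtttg
The LRRC63 window lay whole within the lost region chr13:46211610-46212151, as did the window of LOC107984578, which starts on the opposite strand. The ASTN2-AS1 window shared 275 bp with the lost region chr9:116504058-116504457. The ZNF503-AS2 window ended 19 bp before the lost region chr10:75404233-75404658.

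Every motif was looked for on both strands. The core of TCF and LEF factors, ATCAAAG, was in 0 of the 12 windows near lost regions and in 2.63% of all 34961 windows. The GRHL letters shown above were in 4 of 12 windows (33.3%, against 7.22% of all windows), and the KLF letters in 10 of 12 (83.3% against 59.9%). The GRHL windows were LRRC63 and LOC107984578, which share 1 site, and a ZNF503-AS2 and an SH3RF2 window. The latter windows lay outside lost regions, 307 and 430 bp away. The TEAD letters were in 2 windows (16.7% against 14%). For ETS factors the letters searched were CCGGAAG, found in 2 windows (16.7% against 10.3%). For RUNX factors they were TGTGGTT, found in 1 window (8.33% against 4.28%). None of the 12 windows held the AP-1 motif TGANTCA, which 7.68% of all windows had. The same was true of the FOXA motif TGTTTAC, present in 3.42% of all windows, and of the GATA motif AGATAAG, present in 2.67%. For HNF4 the letters AAAGTCC were absent from the 12 and present in 3.7%. The CTCF core CCACNAGG was absent from the 12 and present in 4.93%. Motifs with such low shares, TCF and LEF included, would often be missing from 12 windows, so these absences say little. Several of the 12 windows overlap each other, so that 1 match is counted in more than 1 window. A match describes these letters and is not a binding site, and most lost regions have no window at all.

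The lost region at the LRRC63 start, which encodes a leucine-rich repeat protein, was called in DMSO 24 h replicates 1, 2 and 4 and in DMSO 48 h replicates 1, 2 and 4. Its peaks stood at percentiles 18.4, 7.07 and 25.8 of the authors' score within their own lists at 24 h, and at 12.4, 23.3 and 19.4 at 48 h. In the left-out library DMSO 24 h replicate 3 its peak stood at percentile 75.4. The region near ZNF503, which encodes a zinc finger transcriptional repressor, had a peak in each of the 8 DMSO libraries and in 0 of 7 for Lgk974. Its percentiles were 37, 35.7 and 31.2 in the used 24 h libraries, 25, 24.3, 26.6 and 6.12 at 48 h, and 82.4 in the left-out library. Percentiles place a peak within its own list, and lists of different lengths cannot be set against each other by them.

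Calls over the lost regions were spread unevenly among the DMSO libraries. At 24 h, 319, 322 and 195 of the 326 regions had a peak in replicates 1, 2 and 4. At 48 h, 302, 325, 303 and 315 had a peak in replicates 1 to 4. All 7 DMSO libraries called 125 regions (38.3%) and 6 of 7 called 201. Of the 201 regions with 1 miss, 131 were missed by DMSO 24 h replicate 4, which had the shortest DMSO list, 76756 peaks against 84856 to 106105 in the other 6 used DMSO libraries. With this library left out and 1 DMSO miss still allowed, so that 5 of 6 calls were enough, 574 regions were found. Leaving out any other library, again with 1 DMSO miss allowed, gave 341 to 458. The used Lgk974 lists held 95210, 98930 and 98304 peaks at 24 h. Each was longer than the list of DMSO 24 h replicate 4 and shorter than those of DMSO 24 h replicates 1 and 2 (106105 and 104822). At 48 h they held 102869 and 122834 peaks, beside 84856 to 104877 with DMSO. The number of reads behind a list is unknown.

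**Figure D1:**
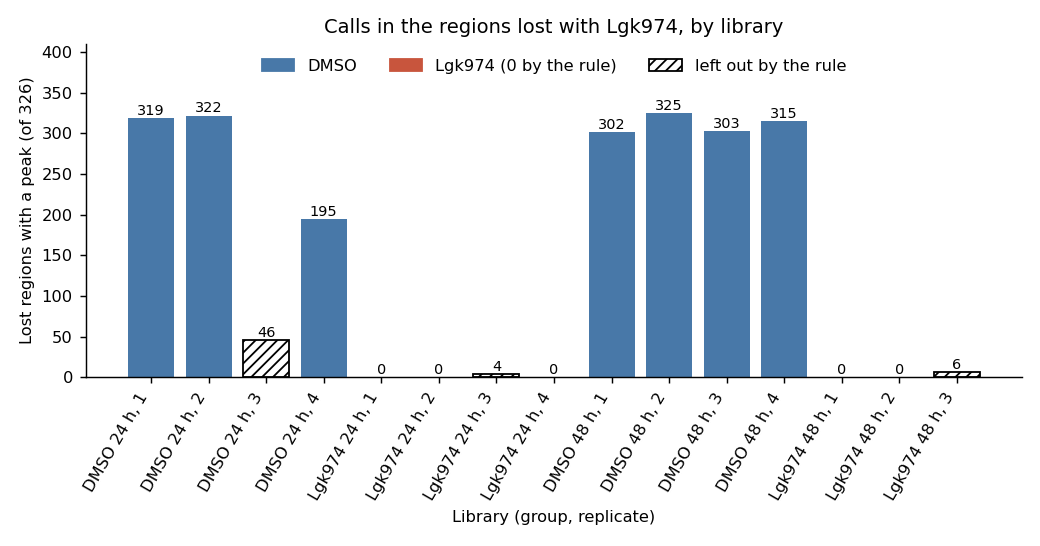
Number of the 326 lost regions with a peak in each of the 15 libraries; blue bars are the DMSO libraries used by the rule, the used Lgk974 libraries are at 0 by the rule, and hatched bars are the left-out libraries. DMSO 24 h replicate 4 called 195, the other used DMSO libraries 302 to 325, and the left-out libraries 46, 4 and 6.

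The 3 left-out libraries give the same measure in samples the rule did not use. DMSO 24 h replicate 3 called 46 of the lost regions, 14.1% (95% exact Clopper-Pearson interval 10.5 to 18.4%). Over all regions it called 54.6%. It called 29.6% of the 10268 other regions that were called in 6 or 7 of the 12 used libraries, and 21.7% of the 414 regions with the opposite pattern (5 of 5 Lgk974 and 0 of 7 DMSO). Although it is a DMSO library, its share over the lost regions was thus below that over regions called equally often. Lgk974 24 h replicate 3 called 4 lost regions, 1.23% (0.335 to 3.11%), beside 4.72% of the equally often called regions and 22.8% of all regions. Lgk974 48 h replicate 3 called 6, 1.84% (0.678 to 3.96%), beside 7.12% and 24.5%. Intervals cover counting error over regions only, and 1 DMSO against 2 Lgk974 libraries allows no test. The DMSO share was 3.37% when every list was shortened to the strongest 53583 peaks, the length of the shortest list.

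Over all 7 Lgk974 libraries, 316 of the 326 lost regions had no peak, and none of the other 10 had a peak in both left-out Lgk974 libraries. The region 680 bp from SH3RF2, which encodes a ubiquitin ligase with SH3 domains, was among the 10, with a peak at percentile 26.7 in Lgk974 24 h replicate 3. Peaks in all 8 DMSO libraries and in 0 of 7 for Lgk974 marked 19 regions. They included those near LYRM9, TNFAIP8L3, PDPN, XIAP and CARD14, described below.

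The lost regions were wider than the median region, and few were among the strong peaks of a list. Their median width was 505 bp (range 291 to 1232), beside 395 bp over all regions and 449 bp over the other regions called in 6 or 7 of 12 libraries. Strength was taken as the median, over the DMSO libraries that called a region, of the percentile of its best peak score in that library's list. The median strength was 32, beside 29.8 over all regions, 19.4 over the equally often called regions and 29.2 over the regions with the opposite pattern (from their Lgk974 peaks). The rule asked for peaks in at least 6 DMSO libraries, while the calls of the equally often called regions came from either treatment. A DMSO strength above theirs is thus partly built into the choice of regions. Of the 326, 40 were above the 50th percentile, 1 was above the 75th and 102 were below the 25th. The authors' fold over background had a median of 4.08. Summits of the DMSO peaks within a region were a median of 140 bp apart at most, and in 266 regions all lay within 200 bp.

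In the DMSO libraries of 24 h, the lost regions' peaks had median percentiles of 31.3, 29.5 and 20.7, and in those of 48 h of 35.5, 43.2, 34.3 and 33.4. Over the equally often called regions the same medians were 22, 21.3 and 13.2 at 24 h and 19.7, 20.5, 18.6 and 17.9 at 48 h. For the lost regions every 48 h median was above every 24 h median. These are ranks within lists of unequal length, so they cannot tell whether accessibility changed between times. The gap to the equally often called regions is partly built in, because the rule chose the lost regions by their DMSO peaks.

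Regions just outside the rule were of similar or lower strength. With peaks in 5 of 7 DMSO libraries and 0 of 5 for Lgk974 there were 306 regions, with a median strength of 22.9 and a median width of 432 bp. There were 397 called in 6 or 7 DMSO libraries and 1 Lgk974 library, with a median strength of 31.8 and a width of 518 bp. The weakest lost region, near HNRNPA1L3, was at percentile 4.45.

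The 10 strongest lost regions lay near LYRM9, TNFAIP8L3, SLC39A10, NACA2, KCNJ2, PDPN, FREM2, LECT2, NECTIN1 and TRIM24, each called in 7 of 7 DMSO libraries. A nearest gene gives a position and not a regulated gene. The strongest, chr17:27960143-27960791, lay 66778 bp from LYRM9. Its percentiles were 72.5, 73.3 and 54.5 at 24 h and 85.3, 85, 82.4 and 78.3 at 48 h. The nearest peak of any used Lgk974 library was 19333 bp away, farther than for most lost regions. Over all lost regions the median of this distance was 2881 bp. A peak of at least 1 used Lgk974 library lay within 1 kb of 75 lost regions, and peaks of all 5 did so for 51. The second, chr15:51059710-51060821, lay inside TNFAIP8L3, which encodes a phosphoinositide transfer protein. Its percentiles were 75.1, 69.8 and 49.8 at 24 h and 74.3, 84.4, 79.1 and 60.6 at 48 h, and the authors' fold reached 11.9 in DMSO 48 h replicate 2.

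SLC39A10 encodes a zinc importer, and the lost region lay 165137 bp from it, at a strength of 72.7. The region at 68.3 lay 22519 bp from NACA2, a relative of a subunit of a chaperone that binds ribosomes. The region at 67.7 was 917818 bp from the potassium channel gene KCNJ2, so no protein-coding gene was close. The region 33030 bp from PDPN, which encodes the membrane glycoprotein podoplanin, had percentiles of 59.2, 68.9 and 32.7 at 24 h and 72.4, 66.9, 67.4 and 71.4 at 48 h.

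The region inside LECT2, which encodes a secreted liver factor, was called in 7 of 7 DMSO libraries. Its percentiles were 32.2, 46.9 and 21.7 at 24 h and 76.7, 66, 63.4 and 65.5 at 48 h, in lists of unequal length. The other 3 had strengths of 64.9 (31795 bp from FREM2, a basement membrane protein), 61.3 (9678 bp from NECTIN1, a cell adhesion molecule) and 60.8 (63389 bp from TRIM24, a chromatin-binding ubiquitin ligase).

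**Figure D2:**
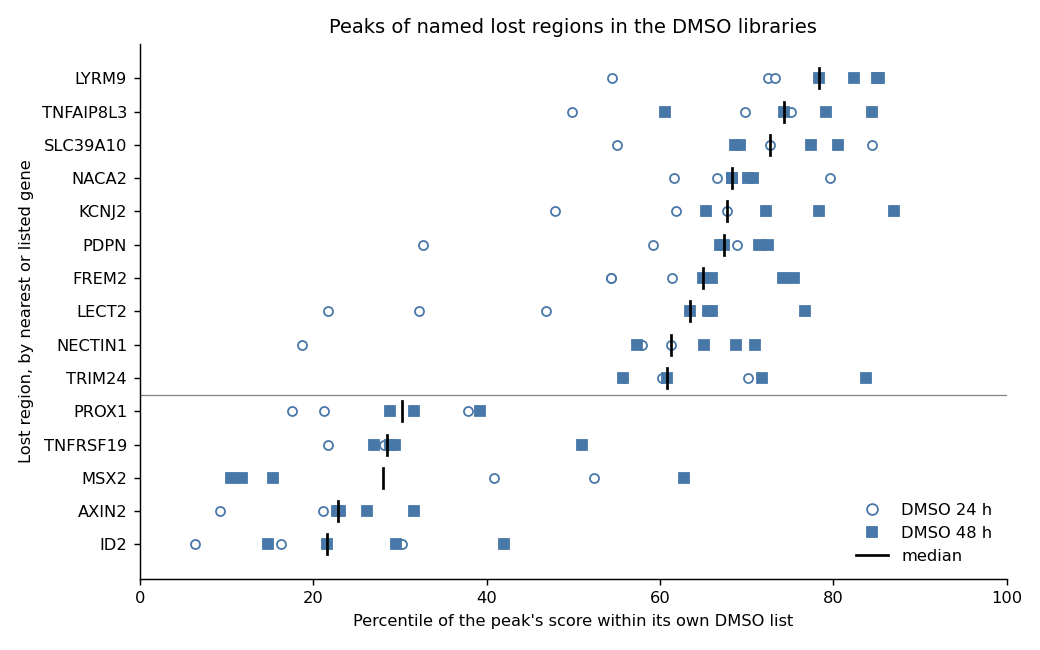
Percentile of the authors' peak score within its own list (x axis) for the 10 strongest lost regions (above the line) and the 5 near WNT target genes (below it), with 1 point per used DMSO library that called the region, open circles for 24 h, squares for 48 h and a black bar for the median. The strongest regions have medians of 60.8 to 78.3, and those near WNT target genes 21.6 to 30.2.

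AXIN2, the feedback inhibitor of the WNT pathway, held a lost region at its upper end on chromosome 17, which is its 5′ end because the gene lies on the minus strand. The region chr17:65560950-65561253 was 304 bp wide and ended 395 bp inside the gene. It was called in 6 of 7 used DMSO libraries, with percentiles of 21.1 and 9.25 in 24 h replicates 1 and 2 and 22.7, 26.2, 23.1 and 31.6 at 48 h. It was not called in DMSO 24 h replicate 4 nor in any of the 3 left-out libraries. The authors' fold in these 6 libraries ran from 2.39 to 3.05, so the peak was weak wherever it was called, and with equal list lengths (the strongest 76679 peaks of each used library) it was left in 3 of 7.

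The region next to it, chr17:65561445-65562085, which spans the end of AXIN2 itself, had a peak in 5 of the 7 DMSO libraries and in 0 of 5 with Lgk974, and so fell just outside the rule. In contrast, the regions chr17:65547034-65547987 and chr17:65556167-65557800, inside the gene, were called in all 15 libraries. A region inside the gene, chr17:65542543-65543038, had peaks in 5 of 7 libraries with DMSO and 5 of 5 with Lgk974. A region 1905 bp outside, chr17:65563553-65563948, was called in 4 of 7 and 5 of 5. A further lost region nearest to AXIN2, chr17:65401454-65401997, lay 126566 bp away and had a strength of 52.

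Of 40 WNT and beta-catenin target genes, 5 had a lost region inside or within 50 kb: AXIN2, ID2, MSX2, PROX1 and TNFRSF19. These 5 were 1.58% of the 316 regions near the list that were called in 6 or 7 DMSO libraries, beside 0.425% (239 of 56208) near all 19974 protein-coding genes. The region 3631 bp before ID2, an inhibitor of basic helix-loop-helix factors, was called in 7 of 7 DMSO libraries, at percentiles of 16.3, 30.2 and 6.4 at 24 h and 14.8, 21.6, 42 and 29.6 at 48 h. The region 10515 bp from MSX2, a homeobox gene, was called in 6, at 52.4 and 40.8 at 24 h and 10.5, 62.8, 11.8 and 15.4 at 48 h.

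PROX1, a homeobox gene of pancreatic and lymphatic development, lay 35343 bp from a lost region with a strength of 30.2. TNFRSF19, which encodes a receptor of the tumour necrosis factor family, lay 42972 bp from a region with a strength of 28.5. With equal list lengths none of these 5 regions reached 6 DMSO calls: AXIN2 had 3, ID2 4, and MSX2, PROX1 and TNFRSF19 5 each of 7. No test was made over the list, whose genes were chosen with results of these data known.

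The other WNT lists had counts of 0 and 1 regions, beside the 0.425% near all protein-coding genes, and were not tested either. Of 50 genes for WNT ligands, receptors and secretion, 0 had a lost region within 50 kb (0 of 295 regions). Of 32 genes of the destruction complex and its nuclear partners, 1 did: CSNK1D, a casein kinase gene, 22462 bp from a region with a strength of 23.5 (1 of 289 regions). The targets and regulators LGR5, RNF43, ZNRF3, NKD1, NOTUM, LEF1 and TCF7 had no lost region within 50 kb. At an end of the gene (1 kb or less away), RNF43 and ZNRF3 had a peak in all 15 libraries, LGR5 in 14, NOTUM in 11, NKD1 in 6, LEF1 in 2 and TCF7 in 0. NOTUM, a secreted enzyme that removes the lipid from WNT, had such a peak in 4 of 7 libraries with DMSO and 5 of 5 with Lgk974.

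Among 25 pancreatic endoderm transcription factor genes, 4 had a lost region within 50 kb (4 of 201 regions, 1.99%). TEAD1, the DNA-binding partner of YAP, lay 28648 bp from a lost region with percentiles of 47.4, 37.6 and 5.53 at 24 h and 69.7, 71.1, 49.5 and 55.1 at 48 h. RBPJ, the DNA-binding factor of the Notch pathway, held a lost region with a strength of 46.6. ONECUT3, an endoderm homeobox gene, lay 5937 bp from a region with a strength of 31.5. PROX1 was the fourth of these genes.

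The YAP and TEAD list had lost regions near 4 of 27 genes (4 of 269 regions, 1.49%), among them TEAD1, FJX1 (37.4) and MYOF (32.3), which encodes a membrane repair protein. The BMP list had 3 of 27 (3 of 210, 1.43%): SMAD7, an inhibitory SMAD, with a region inside the gene at 39.1, and ID2 and MSX2. The Notch list had 3 of 27 (3 of 263, 1.14%): RBPJ, and the coactivator genes MAML3 (25.7) and MAML2 (25.3). TEAD1, RBPJ, PROX1, ID2 and MSX2 each stand in more than 1 list, so these counts share regions.

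The NF-kappa-B list had 3 of 38 (3 of 355, 0.845%): CCL20, a chemokine gene, 32341 bp from a region at 41.3, CARD14, a scaffold that activates NF-kappa-B, at 23.2, and XIAP, an inhibitor of caspases, 12700 bp from a region at 19.4. Keratin and junction genes had 2 of 39 (2 of 387 regions, 0.517%): KRT23, 13461 bp from a region at 48, and KRT20, an intestinal-type keratin, with a region inside the gene at 21.4. Epithelial-mesenchymal transition genes had 2 of 28 (2 of 236, 0.847%), ACTA2 and ITGA5. Ribosome and MYC target genes had 2 of 32 (2 of 213, 0.939%), POLR1A and CAD. Immune and stromal marker genes had 1 of 30 (1 of 159, 0.629%), CD4, whose region lay at the end of PTMS.

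No lost region lay within 50 kb of any of 55 interferon-stimulated genes (0 of 305 regions), 26 genes that silence endogenous retroviruses (0 of 191), 40 cell cycle genes (0 of 276), 42 AP-1, EGF receptor and RAS genes (0 of 398), 27 mucin and secretory genes (0 of 190) or 29 housekeeping genes (0 of 228). Over all 600 listed genes, 25 lost regions were 0.552% of the 4530 nearby DMSO regions.

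**Figure D3:**
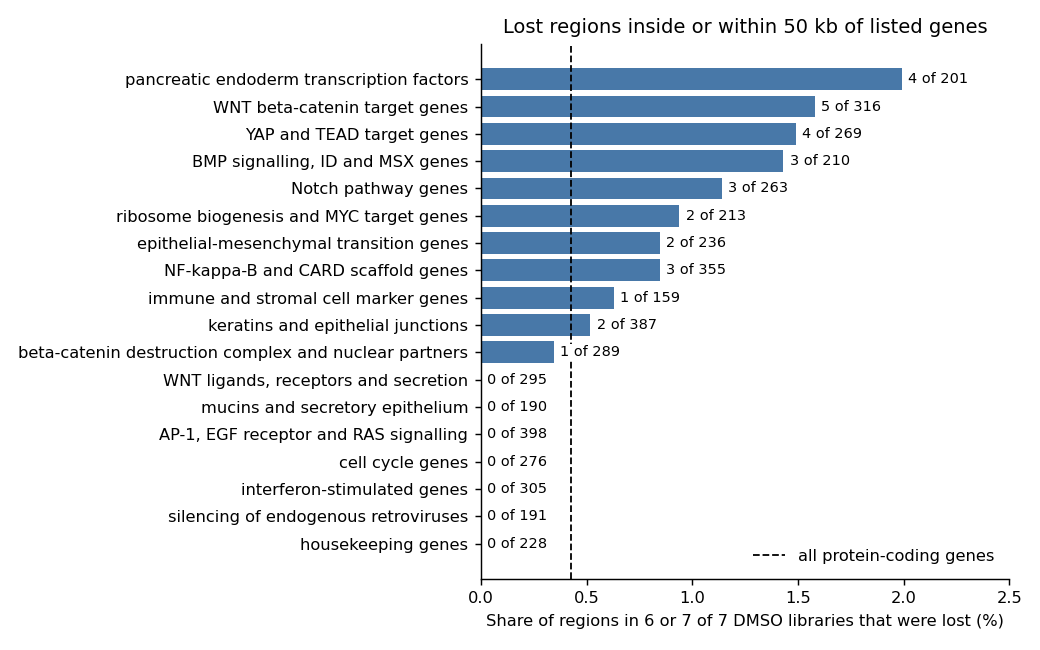
For each of the 18 gene lists, the share of the regions inside or within 50 kb of its genes and called in 6 or 7 of 7 DMSO libraries that were lost with Lgk974 (x axis, percent), with the counts beside each bar; the dashed line is the share over all protein-coding genes, 0.425%. The counts behind the bars are 0 to 5 regions, and no test was made.

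Most lost regions lay away from gene ends. Within 1 kb of either end of any RefSeq gene were 30 (9.2%, exact interval 6.3 to 12.9%), elsewhere inside genes 190 (58.3%, 52.7 to 63.7%) and between genes 106 (32.5%, 27.5 to 37.9%). The share at gene ends was 16.1% over all regions, 12.5% over the equally often called regions and 10.4% over the regions with the opposite pattern. Farther than 50 kb from the end of any protein-coding gene were 138 (42.3%), beside 37.8%, 34.5% and 35%. Counting protein-coding genes alone, 16 (4.91%) lay within 1 kb of an end, beside 9.51% of all regions.

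**Figure D4:**
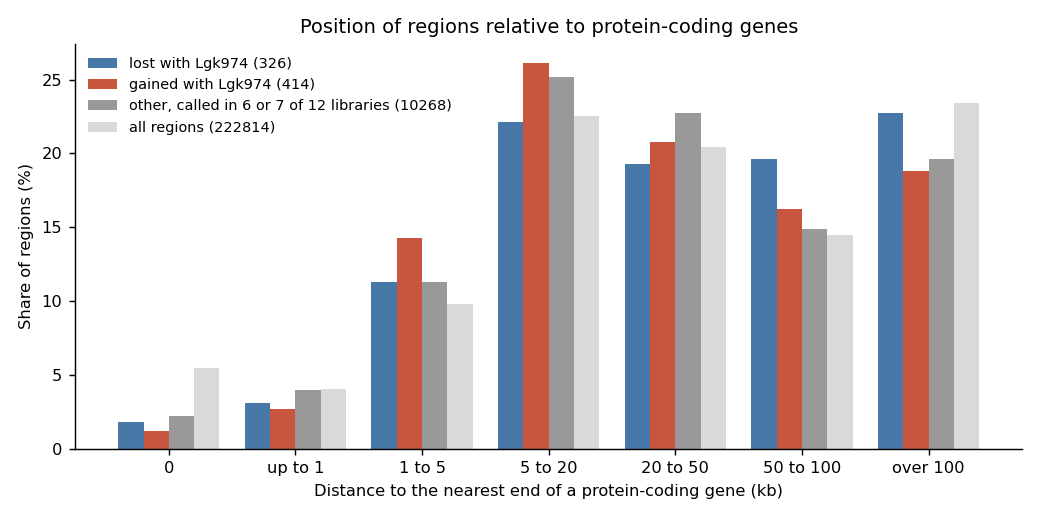
Share of regions (y axis, percent) by distance to the nearest end of a protein-coding gene (x axis, kb), for the lost regions, the regions with the opposite pattern, the other regions called in 6 or 7 of 12 libraries and all regions. Of the lost regions 1.84% lie across an end, beside 5.48% of all regions, and 22.7% lie over 100 kb away, beside 23.4%.

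The strongest of the 16 lay across an end of KLRC2, which encodes a natural killer cell receptor, at percentiles of 42.8, 50.9 and 17.6 at 24 h and 48.5, 66, 53.1 and 50.3 at 48 h. Next came H2AJ, a histone variant gene (40.3), KCTD11, an adaptor of a ubiquitin ligase (35.3), UBE2L5, of the ubiquitin-conjugating enzyme family (32), and TMEM177, a mitochondrial protein gene (27.5). Regions at RABEPK, a Rab effector gene (23.9), CARD14 (23.2), AXIN2 (22.9), SH3RF2 (21.3) and POMGNT1, a glycosyltransferase gene (19.6), completed the 10 strongest. Those at TMEM177, RABEPK and SH3RF2 were on the side of the gene start, and those at H2AJ, KCTD11 and POMGNT1 on the side of the far end.

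The lost regions were scattered over the genome. They had 309 distinct nearest protein-coding genes, of which 17 had 2 lost regions and none had more. There were 7 places with 2 lost regions within 50 kb of each other and none with 3. Chromosomes 13 and 4 had the highest shares of their regions called in 6 or 7 DMSO libraries lost (0.961% and 0.849%, 10 and 22 regions), and chromosome 22 the lowest (0.148%, 2 regions), around the overall 0.487%. A region called in all 12 used libraries lay within 10 kb of 166 (50.9%), beside 44.6% of equally often called regions and 66.2% of those with the opposite pattern.

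Whether the chromatin next to the lost regions also differed was tested on regions the rule had not chosen, though it set where they lie. These were the 400 other regions whose centre lay within 10 kb of the centre of a lost region and that were called in 1 to 11 of the 12 used libraries. The detection excess of a library is the share of them it called minus its share over all other regions with as many calls, in percentage points. It was -0.594, 2.88 and -0.444 in DMSO at 24 h and 0.702, 0.139 and -3.68 with Lgk974 at 24 h, and the groups overlapped. At 48 h it was -0.836, -3.07, -1.26 and 0.912 with DMSO and 2.96 and 2.3 with Lgk974, with no overlap.

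Over both times the mean was -0.344 ± 1.85 (SD, n = 7) with DMSO and 0.482 ± 2.59 (SD, n = 5) with Lgk974. The difference within time was 0.909 percentage points (two-sided exact permutation test, 300 assignments, p = 0.517, smallest possible 0.00333), within the spread between libraries. Within time, 1 of 3 Lgk974 libraries at 24 h and 2 of 2 at 48 h were above the DMSO mean. At 24 h alone the difference was -1.56 (exact p = 0.6, smallest possible 0.1) and at 48 h 3.69 (exact p = 0.0667, the smallest possible). The 48 h minus the 24 h difference was 5.25 (exact permutation p = 0.05, not below 0.05). Among the 198 neighbours within 5 kb the difference was 4.67 (exact p = 0.0467, higher with Lgk974), and among the 1765 within 50 kb it was -0.318 (exact p = 0.647). In none of these settings were neighbours called less often with Lgk974 at a p below 0.05. The lost regions were chosen with the same labels and libraries and were kept fixed in every permutation. These p-values are thus not independent of the rule.

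**Figure D5:**
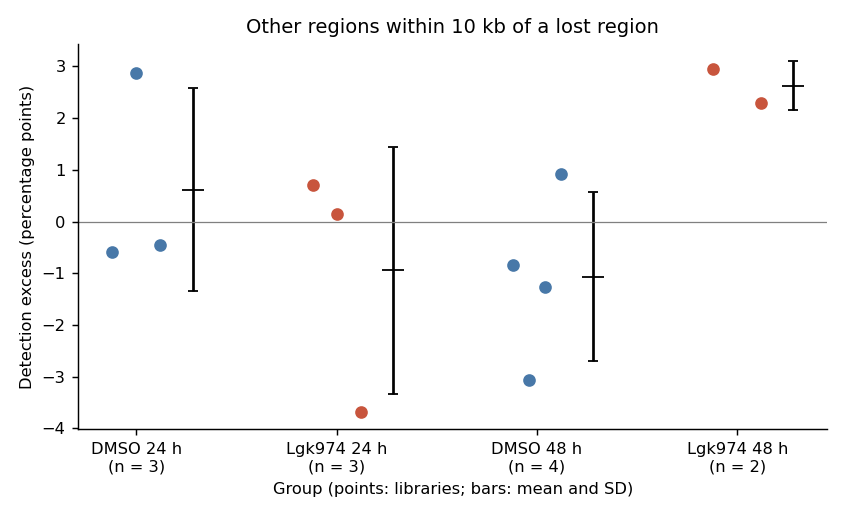
Detection excess in percentage points (y axis) of the 400 other regions within 10 kb of a lost region, by group; points are libraries and black bars the mean and SD. The groups overlap at 24 h, and at 48 h both Lgk974 libraries (2.96 and 2.3) are above all DMSO libraries (highest 0.912).

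The labelled cell type was checked on peaks within 1 kb of a gene end. The epithelial and pancreatic markers KRT7, KRT8, KRT18, KRT19, EPCAM, CDH1, MUC1, GATA6 and FOXA2 each had one in all 15 libraries. Among markers of other cell types, the fibroblast collagen gene COL1A1 had one in all 15 libraries, CSF1R in 13, PDGFRA in 11, CD3D in 7, PTPRC in 2, CDH5 and HBB in 1 each and the endothelial gene PECAM1 in 0. No lost region lay within 50 kb of any of these genes. Which regions count as lost depended on the lists: shortened to the strongest 76679 peaks each, the rule found 564 regions, of which 138 were among the 326. Of the 326, 168 were then called in 3 to 5 DMSO libraries and 20 in 1 or 2.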

How the data were processed

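ATAC-seq peak lists of 15 HPAF-II libraries in 4 groups were used, with groups and replicate numbers taken from the sample labels. Per the submitters' processing notes, the authors' tools included Trimmomatic, Bowtie2, Picard, SAMtools, bedtools, MACS2 and HOMER, on hg38. Not given in the sources used here: versions, settings, any shift of reads for the transposase, and what cleaning removed. These choices decide how many weak peaks a list holds. There was 1 narrowPeak list per library. Whether the authors also called peaks on pooled samples cannot be told from these lists. Each deposited peak has a score, a fold (ratio over background), −log10 p and −log10 q values and a summit offset, as the authors' peak caller gave them. They served to describe, rank and filter peaks inside their own list. The lowest deposited −log10 q per list ran from 2.06 to 2.49. No read counts were used, so depth is unknown and chromatin without a peak may still be open.

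In all, 1413185 peaks were deposited (53610 to 127886 in a list). Of these, 1138 off chromosomes 1 to 22 and X were left out, and 1 damaged line was read as chromosome 1. Peaks were merged into regions, and any overlap with a peak of a library counted as a call. Gene positions (59098 genes) and promoter windows came from RefSeq on GRCh38.p14, the assembly of hg38. Genes were named by rule: lost regions inside or within 50 kb of genes of 18 lists (600 genes found, 4 by an older symbol; all for WNT lists, otherwise up to 3 by strength), the 10 strongest, up to 10 within 1 kb of a protein-coding gene end, and 8 WNT genes in any case (AXIN2, LEF1, LGR5, NKD1, NOTUM, RNF43, TCF7 and ZNRF3). The regions near HNRNPA1L3, LRRC63, ASTN2-AS1, ZNF503 and 126566 bp from AXIN2, and the chromosomes at the extremes, were named after their values were seen. The lost regions, lists and rules were chosen with earlier results of these data known.

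Neighbouring regions were tested by two-sided exact permutation of treatment labels within time, with the lost regions kept fixed. Alternatives were other thresholds, list lengths, overlaps, distances, a replicate block and leaving out each library. The code (Python 3.11.15; scipy 1.17.1, pandas 2.3.3, numpy 2.4.6; figures with matplotlib 3.10.9) was tested on simulated data. Some planned marker and motif results are not reported here.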

Additional observations from a re-analysis of the deposited data

Results flagged for a closer look

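Among 9 sets of values by group, 1 library standing far from the others was found: the list of Lgk974 24 h replicate 3 held 53610 peaks, against 95210 to 98930 in the other Lgk974 libraries of that time. The check needs 4 values. The 3 list lengths of Lgk974 at 48 h (102869, 122834 and 57708 peaks) count among the 9 sets but could not be checked. Chance alone gives such a gap in about 1 of 20 groups. This library was left out by the rule and called 4 of the 326 lost regions. Its part in that low count was not tested.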

How the results depend on the processing

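The count of lost regions was 326 in the main analysis, 147 with all 15 libraries (7 of 8 DMSO, 0 of 7 Lgk974), 125 when 7 of 7 DMSO libraries were required and 564 with equal list lengths. With replicates 1 and 2 alone, an alternative chosen after seeing the data, 830 regions had peaks in 4 of 4 libraries with DMSO and 0 of 4 with Lgk974, of which 290 were among the 326, and 728 had the opposite pattern. With a single library left out and 1 DMSO miss still allowed (5 of 6 where a DMSO library was left out), the count ran from 341 to 574. Keeping peaks with a −log10 q of at least 5 gave 309 regions (232 shared), requiring peaks to cover 50% of a region gave 408 (212 shared), and windows of 250 bp on each side of summits gave 326, of which 318 overlapped a lost region.

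The neighbour difference of 0.909 percentage points was 4.67 within 5 kb (exact p = 0.0467) and changed sign to -0.318 within 50 kb, -0.999 with equal list lengths and -1.56 at 24 h alone. Leaving out each library gave 0.409 to 1.91 (exact p from 0.153 to 0.78). With the replicate block (5 pairs, exact sign flips, smallest p 0.0625) it was 0.894 (exact p = 0.625). Correlations over regions, taken on calls minus their group mean, were -0.0721 to 0.199 between same-numbered samples and -0.129 to 0.115 between others. At 48 h only 2 Lgk974 libraries were used, so their deviations are exact opposites. Each 48 h value thus fixes another of opposite sign, and these values say little about pairing. At 24 h the value was 0.199 for replicate 4 with replicate 4, and -0.129 to -0.0795 for a replicate 4 with another number. The main test did not take the numbers as pairs, and whether equal numbers share a batch was not tested. The share of lost regions in DMSO 24 h replicate 3 moved from 14.1 to 3.37% with equal list lengths. The share near gene ends was 20.6% within 3 kb and 4.91% for protein-coding genes. The median width of single DMSO peaks was 350 bp. The cause of these changes was not tested beyond what each setting alters. Peak lists without counts cannot tell a closed region from a weak peak.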
